A study of Mus musculus with 6 samples.

Results

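The circadian clock genes Per1, Per2, Per3, Cry1, Nr1d1, Nr1d2, Arntl, Npas2, Dbp and Nfil3 were described in mouse colonic mucosa by every probe set that the platform annotation assigns to 1 of these 10 symbols. They are 10 of the 18194 genes that the annotation names, and 21 of the 45101 probe sets on the array, with at least 1 probe set for each gene. The C57BL/6 mucosa was profiled on 3 arrays labelled p38a knockout, A, B and C, and on 3 arrays labelled wild type, A, B and C. The kinase p38a, the product of Mapk14, is switched on by stress and cytokines. No treatment was given to either group, and the labels name the cells as intestinal epithelial cells. The promoter or Cre line behind the knockout, the age and sex of the mice and the hour at which the mucosa was taken are facts not given in the sources used here. Nor do the labels say that the arrays came from separate mice, so the p-values measure only the spread between these arrays, which may be technical.

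The mammalian clock is a feedback loop of transcription that runs in nearly every cell, colonic epithelium included. The activators BMAL1 (encoded by Arntl) and CLOCK or NPAS2 bind E-box motifs and switch on the period genes Per1, Per2 and Per3, the cryptochrome genes, the REV-ERB genes Nr1d1 and Nr1d2, and Dbp. PER and CRY proteins then block the activators, while the REV-ERB receptors repress Arntl, Npas2, Nfil3 and, together with the E-box input, Cry1. The transcripts of the first set and of the REV-ERB targets therefore peak at different hours of the day. DBP activates and NFIL3 represses genes through the same D-box motif, which Per3 also carries.

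Promoters of 4 members are printed that hold letters of motifs these factors are known to bind. They were chosen for that among the 5 genes at an unadjusted p under 0.05 in limma, and the window of Npas2, the other of these, held none of the motifs. A match of letters is a description, not a proven site. Each runs 5′ to 3′ from 250 bases before the gene start to 50 after it and comes from RefSeq on GRCm38.p6. Capitals mark an E-box, CACGTG, in Cry1, the D-box letters TTATGTAA in Per3, and the core of the motif bound by REV-ERB and ROR receptors, AGGTCA, in Nr1d2 and, on the other strand, in Nfil3.

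Nr1d2 (chr14:18239057-18239356, minus strand): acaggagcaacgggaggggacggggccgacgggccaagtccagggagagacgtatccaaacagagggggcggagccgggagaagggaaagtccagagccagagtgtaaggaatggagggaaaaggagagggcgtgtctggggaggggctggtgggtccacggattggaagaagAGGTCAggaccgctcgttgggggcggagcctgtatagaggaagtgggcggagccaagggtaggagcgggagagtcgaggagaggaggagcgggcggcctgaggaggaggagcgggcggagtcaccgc

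Per3 (chr4:151044616-151044915, minus strand): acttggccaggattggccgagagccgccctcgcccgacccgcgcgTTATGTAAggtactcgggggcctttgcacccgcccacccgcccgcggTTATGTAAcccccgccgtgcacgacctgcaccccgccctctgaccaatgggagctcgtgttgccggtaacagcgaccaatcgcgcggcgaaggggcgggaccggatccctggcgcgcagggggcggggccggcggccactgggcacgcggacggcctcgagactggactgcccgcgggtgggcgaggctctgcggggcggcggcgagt

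Cry1 (chr10:85185005-85185304, minus strand): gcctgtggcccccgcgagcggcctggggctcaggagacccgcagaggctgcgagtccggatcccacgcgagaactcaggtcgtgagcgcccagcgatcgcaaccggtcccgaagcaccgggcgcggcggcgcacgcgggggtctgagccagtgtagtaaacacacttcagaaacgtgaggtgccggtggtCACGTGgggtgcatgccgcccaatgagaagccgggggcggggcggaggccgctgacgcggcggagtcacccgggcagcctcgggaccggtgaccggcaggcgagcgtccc

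Nfil3 (chr13:52980990-52981289, minus strand): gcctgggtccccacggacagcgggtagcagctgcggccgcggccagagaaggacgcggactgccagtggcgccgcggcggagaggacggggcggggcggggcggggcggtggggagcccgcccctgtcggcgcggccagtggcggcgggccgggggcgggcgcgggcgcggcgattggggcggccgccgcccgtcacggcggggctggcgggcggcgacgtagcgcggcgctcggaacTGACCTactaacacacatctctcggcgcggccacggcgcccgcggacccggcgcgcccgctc

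Both strands were searched, and the 3 motifs do not overlap in these windows. The E-box of Cry1 began 60 bases before the gene start, the D-box letters of Per3 began 205 and 158 bases before it, the receptor motif of Nr1d2 77 bases and that of Nfil3 12 bases before it. Of 32851 promoter windows of the same length, 7.15% held the E-box, 0.938% the D-box letters and 16.3% the receptor motif. Of the 10 genes, 9 had an entry, with 11 windows in all. An E-box stood in 2 of these windows, in Per1 and Cry1, a receptor motif in 4, in Per1, Nr1d2, Arntl and Nfil3, and D-box letters in the window of Per3.

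Levels are given as log2(signal + 16), quantile normalized from the deposited MAS5 signals, and always for arrays A, B and C in that order. Differences are log2 levels of the arrays labelled knockout minus those of wild type. Because of the 16 added to each signal, they understate the change of dim genes. Levels of different probe sets were not compared with each other. Of the 21 probe sets, 19 had a mean level above the 40th percentile of the array and were tested, and the other 2 are given without a test.

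The knockout label could not be checked on the target. On its brightest probe set Mapk14 read 9.72, 9.91 and 9.73 in the arrays labelled knockout, against 9.31, 9.44 and 9.37 in wild type, a difference of 0.41 (SE 0.15, limma adjusted p = 0.915) that goes against the label. There the groups did not overlap. Its other tested probe sets stood at 0.29, 0.34, 0.62 and -0.06, all with overlapping groups. A 3' probe set outside a deleted part checks nothing, and the places of these probe sets were not looked up, hence the wording "labelled knockout". Wild type A and C were dimmer, with a trimmed mean signal of 139 and 116, against 187 in wild type B, while the arrays labelled knockout lay between 191 and 221. Degraded RNA raises the signal of a 3' probe set over that of a 5' one, and for the Gapdh control this ratio was 0.859 to 0.955 in the arrays labelled knockout, against 1.10, 0.989 and 1.45 in wild type. For the clock genes and their arms, the value against wild type B alone and the value with the Gapdh ratio added as a covariate are therefore given too. The first rests on 1 control array. The Gapdh ratio was lower in every array labelled knockout than in any wild-type array, so the second cannot tell RNA quality from the label. The covariate also raised the SE of every member, for Dbp from 0.47 to 0.69.

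The epithelial marker list (Epcam, Cdh1, Krt8, Krt20, Vil1 and Cdx2) was bright throughout, with a summed signal of 43230 to 48780 in the arrays labelled knockout, against 42270 to 48660 in wild type. Signal of other cells was also present. All 5 T cell markers read lower in the arrays labelled knockout, with a sum of 274 to 573 against 323 to 1276 in wild type, where array C was highest. Of 6 smooth muscle markers, 5 read higher, with a sum of 271 to 664 against 165 to 293. All 4 B and plasma cell markers with a probe set read lower, at 891 to 3621 against 519 to 4018, and 2 of 5 macrophage, 1 of 4 fibroblast and 1 of 5 pancreatic acinar markers read higher. None of the tested markers passed the threshold. Cnn1, Myh11, Cd2, Cd79a, Itgam, Pdgfra, Cpa1, Cpb1 and Ctrb1 lay under the filter, so their directions were counted without a test. Whether other cells contribute to the clock values was not tested, and in such bulk samples fewer cells of a type and less RNA per cell cannot be told apart.

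Of the 10 genes, 6 read higher and 4 lower in the arrays labelled knockout on their brightest probe sets. Nr1d2, Dbp and Per3, which the activators switch on, read 1.94-, 1.96- and 1.68-fold higher. Nfil3, Cry1 and Npas2, which the REV-ERB receptors hold down, read 2.14-, 1.73- and 1.5-fold lower. Per1, Per2 and Arntl differed by under 0.1 log2 on their brightest probe sets, and Nr1d1 varied more within the groups than between them. None of the 19 tested probe sets passed a limma adjusted p of 0.05 (0.915 to 0.989 for members), and 0% of all 27002 tested probe sets did.

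At an unadjusted p under 0.05 in limma stood 5 of the 19, 2 of them higher (Nr1d2 and Per3) and 3 lower (Nfil3, Cry1 and Npas2). Over all probe sets tested this share was 3.53%, made up of 1.70% higher and 1.82% lower. The groups did not overlap on 4 of the 19, Nr1d2 on the higher side and Nfil3, Cry1 and Npas2 on the lower side, where 8.74% of all probe sets did not overlap (4.75% higher and 4.0% lower). Over the 19 the median difference was 0.03, and over all tested probe sets 0.02. Of the 19, 10 read higher and 9 lower. The members were chosen with earlier results of these data known, so these counts describe them and test nothing. Some probe sets passed the filter only through the group where they were higher, so the counts carry no weight for them. They were Nr1d1 and the second Dbp probe set among the higher, and the dimmest tested probe sets of Per2 and Per3 among the lower.

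**Figure D1:**
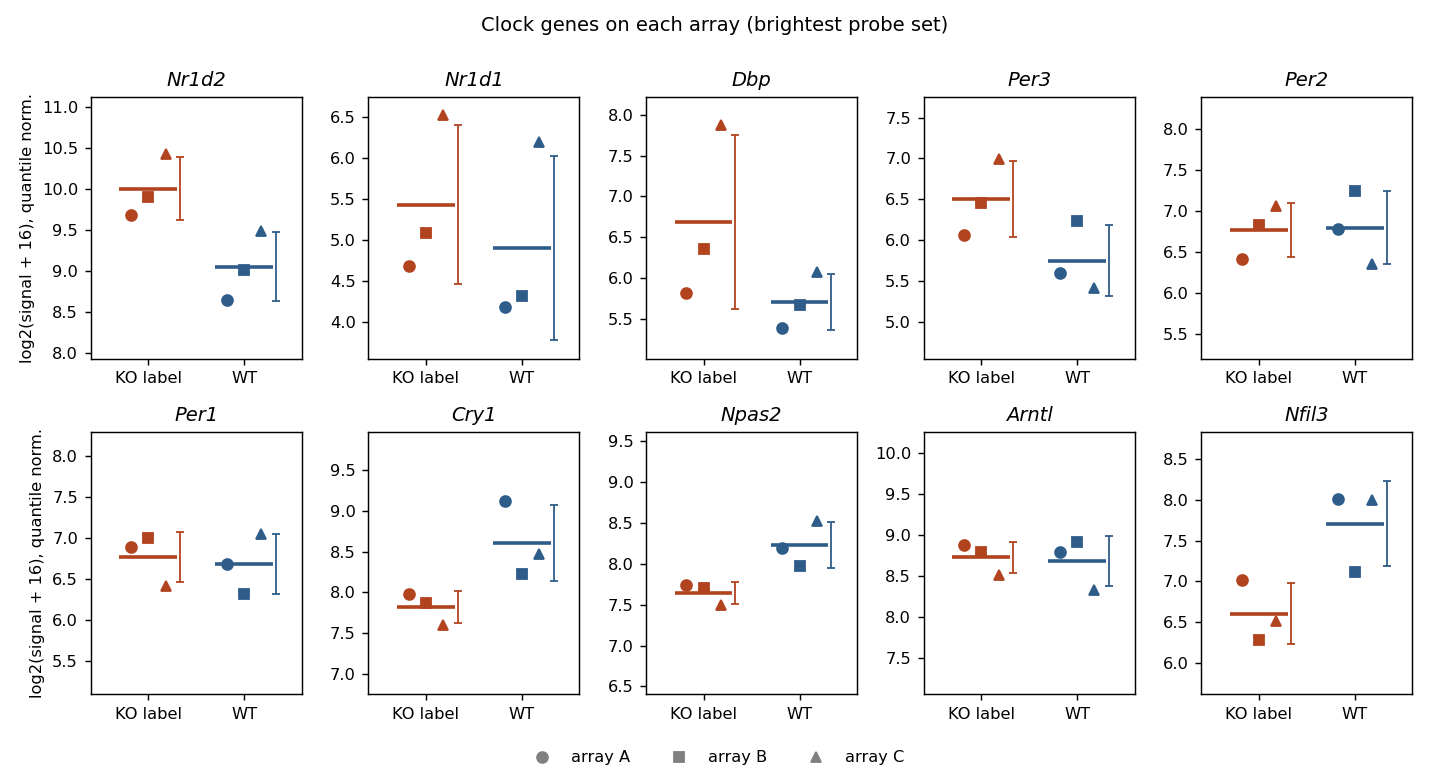
Level of each clock gene on its brightest probe set, as log2(signal + 16) after quantile normalization, on the arrays labelled knockout (red) and wild type (blue). Circles, squares and triangles are arrays A, B and C, lines are group means and bars 1 SD (n = 3 each), and every panel spans the same height. In Nr1d2 all arrays labelled knockout lie above wild type, and in Cry1, Npas2 and Nfil3 all lie below.

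Among the activators, Npas2, a partner of BMAL1 that can stand in for CLOCK, on its brightest probe set (1421037_at) read 7.74, 7.71 and 7.49 in the arrays labelled knockout, against 8.19, 7.97 and 8.53 in wild type. The groups did not overlap, and the arrays labelled knockout lay close together. The deposited signals, 254, 214 and 195 in the arrays labelled knockout against 220, 253 and 231 in wild type, did overlap, and gave a log2 difference of -0.087 without scaling, where all probe sets had a median of 0.40. The difference was -0.58 (SE 0.21, 95% interval -1.05 to -0.11, limma adjusted p = 0.915). The exact permutation test, two-sided, gave p = 0.1, below which 3 against 3 arrays cannot go. Its other probe set differed by -0.40 (SE 0.28), with groups that overlapped and a low reading of 4.54 in the array labelled knockout C. Against wild type B alone Npas2 read -0.32, and with the Gapdh ratio added as a covariate -0.22.

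Arntl, which encodes BMAL1, gave 2 different answers. Its brightest probe set (1425099_a_at) read 8.88, 8.79 and 8.51 in the arrays labelled knockout, against 8.79, 8.92 and 8.33 in wild type, and the groups overlapped. That difference was 0.05 (SE 0.21, 95% interval -0.43 to 0.53), and its interval holds shifts in both directions. The dimmer probe set (1457740_at) read 6.75, 7.35 and 7.10 in the arrays labelled knockout, against 7.99, 6.95 and 8.24 in wild type, a difference of -0.66 (SE 0.34, limma adjusted p = 0.915). There wild type A and C lay above every other array, and wild type B lay within the range of the arrays labelled knockout. The brighter probe set was instead lowest in both arrays C. Against wild type B alone the brighter probe set turned to -0.19, and with the Gapdh ratio added to -0.27. Which transcripts each probe set reads was not looked up.

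Nr1d2, which encodes the receptor REV-ERB beta, on its brightest probe set (1416958_at) read 9.68, 9.90 and 10.43 in the arrays labelled knockout, against 8.65, 9.01 and 9.49 in wild type. Every array labelled knockout lay above every wild-type array, and within both groups array A was lowest and array C highest. The deposited signals were 1067, 1040 and 1598 in the arrays labelled knockout, against 306, 550 and 454 in wild type, also without overlap, though there array A was not lowest in the arrays labelled knockout and array C was not highest in wild type. Without scaling the log2 difference was 1.48. The difference was 0.95 (SE 0.27, 95% interval 0.34 to 1.56, limma adjusted p = 0.915; two-sided exact permutation test, p = 0.1). It was 0.99 against wild type B alone and 1.25 with the Gapdh ratio added. The other probe set of Nr1d2 lay under the filter and read 4.98, 4.93 and 5.21 in the arrays labelled knockout, against 4.12, 4.13 and 4.56 in wild type, again without overlap.

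Nr1d1, which encodes the related receptor REV-ERB alpha, had a single probe set (1426464_at), close to the filter at 5.10. It passed through the arrays labelled knockout, with a mean of 5.43 against 4.90 in wild type, so its count carries no weight. It read 4.68, 5.08 and 6.53 in the arrays labelled knockout, against 4.18, 4.32 and 6.19 in wild type. Both arrays C were high and the other 4 low, so the groups overlapped. The difference of 0.53 (SE 0.61, 95% interval -0.87 to 1.93, limma adjusted p = 0.916) became -0.02 without the array labelled knockout C and 1.18 without wild type C. It was 1.11 against wild type B alone and 1.55 with the Gapdh ratio added.

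Cry1, which encodes a cryptochrome that blocks the activators, on its only probe set (1433733_a_at) read 7.98, 7.87 and 7.60 in the arrays labelled knockout, against 9.12, 8.23 and 8.47 in wild type. The groups did not overlap, and wild type A was the highest array by far. The deposited signals, 306, 243 and 211 in the arrays labelled knockout against 429, 310 and 222 in wild type, overlapped and gave a log2 difference of -0.29 without scaling. The difference was -0.79 (SE 0.26, 95% interval -1.37 to -0.21, limma adjusted p = 0.915; two-sided exact permutation test, p = 0.1). It shrank to -0.41 against wild type B alone and to -0.53 without wild type A, and was -0.74 with the Gapdh ratio as a covariate.

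Per3, a period gene, was covered by 6 probe sets that differed from each other in size and direction. The brightest (1421087_at) read 6.06, 6.45 and 6.99 in the arrays labelled knockout, against 5.60, 6.24 and 5.42 in wild type, a difference of 0.75 (SE 0.31, 95% interval 0.05 to 1.45, limma adjusted p = 0.915). Only the array labelled knockout A reached into wild type, below wild type B. The other 4 tested probe sets of Per3 ranged from -0.11 to 0.38, with overlapping groups, and the array labelled knockout C was the highest of the 6 arrays on 2 of these 4. The probe set under the filter read 4.15, 4.80 and 4.32 in the arrays labelled knockout, against 4.84, 4.63 and 4.41 in wild type. Against wild type B alone the brightest read 0.26, and with the Gapdh ratio added as a covariate 0.24.

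Per1 and Per2, the period genes that also respond quickly to signals from outside the cell, showed no separation. Per1 (1449851_at) read 6.89, 7.0 and 6.42 in the arrays labelled knockout, against 6.68, 6.31 and 7.05 in wild type, a difference of 0.09 (SE 0.26, 95% interval -0.50 to 0.68). Per2 (1417602_at) read 6.41, 6.83 and 7.05 in the arrays labelled knockout, against 6.78, 7.25 and 6.35 in wild type, a difference of -0.03 (SE 0.28, 95% interval -0.67 to 0.61). Wild type B was lowest of all 6 arrays for Per1 and highest for Per2. The intervals leave room for a difference of about 0.6 in either direction, and the other 2 probe sets of Per2 stood at -0.29 and -0.12. Against wild type B alone Per1 stood at 0.46 and Per2 at -0.48, and with the Gapdh ratio added at 0.60 and -0.57.

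Dbp, the D-box activator and one of the most strongly cycling clock outputs, on its brightest probe set (1438211_s_at) read 5.82, 6.35 and 7.87 in the arrays labelled knockout, against 5.39, 5.67 and 6.07 in wild type. The array labelled knockout C stood far above the rest, with a deposited signal of 255 where the other 5 arrays had 22 to 74, and the array labelled knockout A lay within wild type. The difference was 0.97 (SE 0.47, 95% interval -0.11 to 2.05, limma adjusted p = 0.915). Without the array labelled knockout C it was 0.38, against wild type B alone 1.01, and with the Gapdh ratio added 1.04. The second probe set, 0.44 (SE 0.32), had the same order of arrays within each group. It passed the filter through the arrays labelled knockout, with a mean of 5.41 against 4.98 in wild type, so its count carries no weight. The suffix of the brighter probe set marks probes shared by several transcripts.

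Nfil3, the D-box repressor, on its only probe set (1418932_at) read 7.02, 6.28 and 6.52 in the arrays labelled knockout, against 8.01, 7.11 and 8.0 in wild type. The groups did not overlap, but wild type B lay only just above the array labelled knockout A. The deposited signals, 139, 70.1 and 90.7 in the arrays labelled knockout against 194, 126 and 162 in wild type, overlapped there and gave a log2 difference of -0.63 without scaling. The difference was -1.10 (SE 0.31, 95% interval -1.80 to -0.40, limma adjusted p = 0.915; two-sided exact permutation test, p = 0.1), the largest in size among the 19 tested probe sets. It was -0.50 against wild type B alone and -0.71 with the Gapdh ratio added. Nfil3 is also used by lymphocytes, and the summed T cell markers read 274, 573 and 362 in the arrays labelled knockout, against 656, 323 and 1276 in wild type. Nfil3 and this sum were both higher in wild type A and C than in wild type B, while among the arrays labelled knockout B had the highest sum and the lowest Nfil3. Their part in the Nfil3 value was not tested.

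**Figure D2:**
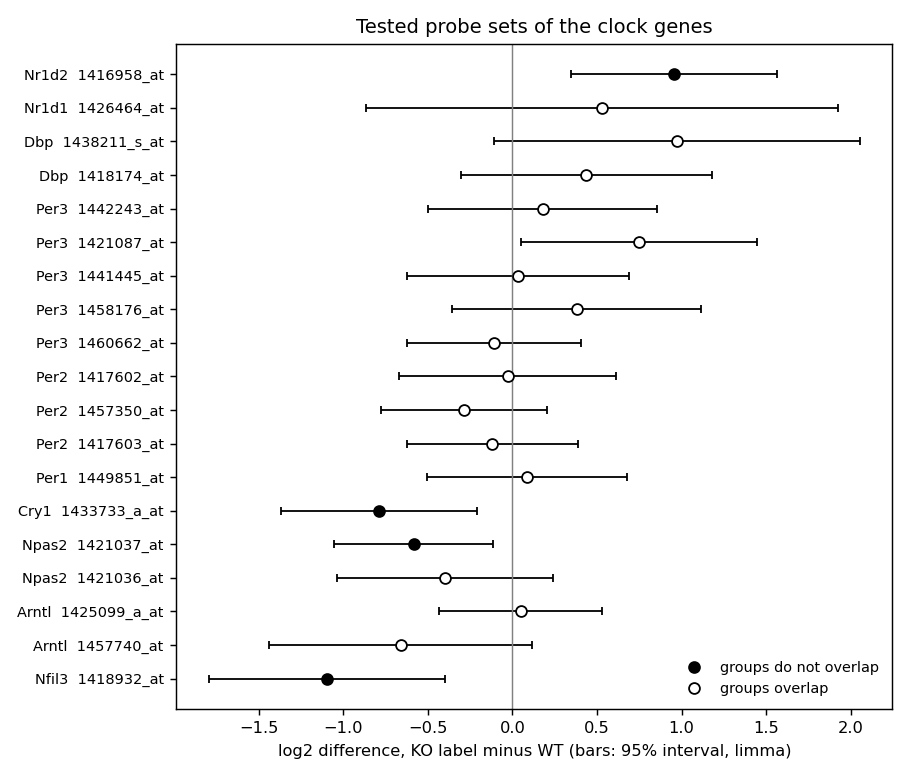
Log2 difference, arrays labelled knockout minus wild type, for the 19 tested probe sets of the clock genes, with the limma 95% interval as a bar. Filled points mark the 4 probe sets whose groups do not overlap, and the intervals of 5 exclude 0 before adjustment over all probe sets.

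To show the 2 arms of the clock, E-box genes and REV-ERB targets, together, each gene's brightest probe set was set relative to its own mean over the 6 arrays, and Per1, Per2, Per3, Nr1d1, Nr1d2 and Dbp were averaged as 1 arm and Arntl, Npas2, Cry1 and Nfil3 as the other. The first arm averaged -0.16, 0.18 and 0.79 in the arrays labelled knockout, against -0.54, -0.29 and 0.01 in wild type. The second averaged -0.10, -0.34 and -0.47 in the arrays labelled knockout, against 0.52, 0.05 and 0.33 in wild type. In the second arm the groups did not overlap, while in the first the array labelled knockout A lay within wild type. Cry1, Npas2 and Nfil3 did not overlap singly either, so the separation of the second arm adds nothing to theirs. Cry1, placed in that arm, also has E-box input. Nr1d1, in the first arm, lay near the filter, which it passed through the arrays labelled knockout. It ranged over 2.34 log2, so the first arm and the gap rest partly on it.

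The gap, first arm minus second, was -0.06, 0.52 and 1.27 in the arrays labelled knockout, against -1.06, -0.34 and -0.32 in wild type. Its mean was 0.57 ± 0.67 in the arrays labelled knockout and -0.57 ± 0.42 in wild type (SD, n = 3 each), 1.15 apart. The array labelled knockout C and wild type A were the extremes, and the arrays labelled knockout A and wild type C lay near the middle. No test is given for this score, because the genes were chosen and assigned to arms with earlier results of these data known. With the Gapdh ratio added the difference in the gap was 1.17. Against wild type B alone it was 0.92, and without the array labelled knockout C as well it was 0.57. The arms peak at different hours and the hour of collection is not given, so hour and label cannot be told apart here.

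**Figure D3:**
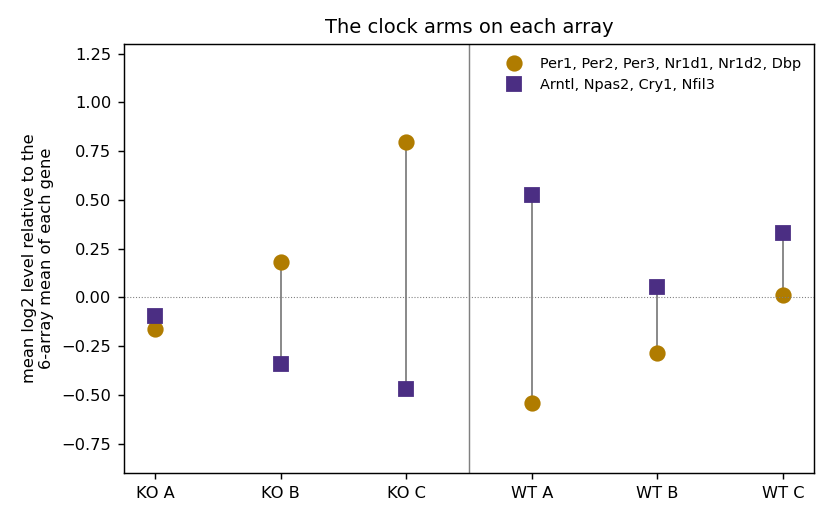
Mean log2 level of the 2 clock arms on each array, relative to the 6-array mean of each gene, with a line joining the arms of 1 array. In wild type the REV-ERB targets (squares) lie above the E-box genes (circles) on every array, in the arrays labelled knockout B and C the order is turned, and in the array labelled knockout A the arms nearly meet. Because each gene is centred, the group means mirror each other, and the order does not show which arm is higher in level.

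Not every member followed its arm. Over the 6 arrays Nr1d2 had a Pearson r of 0.89 with Dbp, 0.73 with Per3 and 0.76 with Nr1d1, and of -0.90 with Cry1 and -0.73 with Nfil3. Nfil3 and Npas2 had an r of 0.90 with each other. Per1 and Per2 did not follow Nr1d2, with an r of 0.09 and -0.01, and had an r of -0.86 with each other. With Per3 they had an r of -0.49 and 0.63, and with Nfil3 of 0.17 and -0.43. The brightest Arntl probe set had an r of -0.88 with Nr1d1 and of 0.05 with Cry1. That r of -0.88 rests on both arrays C, where Nr1d1 was high and this probe set low. The dimmer Arntl probe set had another order of arrays, and its r was not computed. These correlations describe 6 arrays that share the group and brightness differences above, and carry no test.

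The genes most like Dbp and Arntl over the 6 arrays, among 12427 other genes tested, were picked by the highest Pearson r. For Dbp they were Cachd1 (r = 0.998), Slc36a1 (r = 0.988) and Nagk (r = 0.987). Slc36a1, an amino acid transporter gene, read 8.01, 8.57 and 9.54 in the arrays labelled knockout, against 7.97, 8.14 and 8.38 in wild type. As with Dbp, the array labelled knockout C stood above the rest. For the brightest Arntl probe set they were Armc6 (r = 0.999), Rcc2 (r = 0.998) and Eif5b (r = 0.998), all lowest in wild type C and next lowest in the array labelled knockout C.

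Other clock genes were read from a list of further regulators and outputs, of which 20 were analysed. Of these, 17 could be tested, and 3 (Rorb, Fbxl21 and Hlf) lay under the filter. On their brightest probe sets 6 read higher and 11 lower, with a median of -0.04, and none passed an adjusted p of 0.05. At an unadjusted p under 0.05 stood 1 of them, Arntl2, a paralog of Arntl, at 0.60 (SE 0.23, limma adjusted p = 0.915), named after its values were seen. That probe set passed the filter through the arrays labelled knockout, with a mean of 5.54 against 4.95 in wild type, so its count carries no weight, and its other probe set stood at 0.25 with overlapping groups. The groups did not overlap on the brightest probe sets of 2 of the 17, Arntl2 and Tsc22d3. Over all genes, fitted on their brightest probe sets only, 3.94% stood at an unadjusted p under 0.05 in limma. The groups of 9.06% of all genes did not overlap. Tsc22d3, a glucocorticoid-induced gene, stood at -0.44 (SE 0.20) on its brightest probe set, while its other tested ones stood at 0.36 and -0.31. Usp2, a clock output that encodes a deubiquitinase, stood at -0.35 (SE 0.24), with overlapping groups. Tsc22d3 and Usp2, the lowest of the 17, were also named after their values were seen.

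Clock, which encodes the partner of BMAL1, read 9.41, 9.49 and 9.10 in the arrays labelled knockout, against 9.05, 9.15 and 8.57 in wild type, a difference of 0.41 (SE 0.21, limma adjusted p = 0.915). Only the array labelled knockout C reached into wild type, and the other 3 Clock probe sets were higher as well, by 0.22 to 0.45. Cry2, the second cryptochrome gene, stood at -0.23 (SE 0.21) and Rora, whose product activates through the REV-ERB motif, at -0.27 (SE 0.24).

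Tef, a relative of Dbp, read 7.17, 7.47 and 8.16 in the arrays labelled knockout, against 6.94, 6.97 and 8.15 in wild type, a difference of 0.25 (SE 0.38). Both arrays C were high, the same order of arrays as in Nr1d1. Bhlhe40 and Bhlhe41, which encode repressors that bind E-boxes, stood at 0.15 (SE 0.16) and 0.21 (SE 0.25), and Ciart, another repressor gene of the loop, at -0.03 (SE 0.22).

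The direction of 6 members held under every one of the settings in which they could be tested. Nr1d2 ranged from 0.74 to 1.48 over 22 other settings, Dbp from 0.38 to 1.40, Per3 from 0.02 to 1.01 in 21 settings, Npas2 from -0.71 to -0.09, Cry1 from -1.27 to -0.29 and Nfil3 from -1.48 to -0.46. With no scaling between arrays the median of all probe sets was 0.40 higher in the arrays labelled knockout. Relative to that median Nr1d2 stood at 1.08, Dbp at 0.87, Per3 at 0.61, Npas2 at -0.49, Cry1 at -0.69 and Nfil3 at -1.03. Nr1d2, Dbp and Per3 were thus above the median of all probe sets, and Npas2, Cry1 and Nfil3 below it, in both the normalized and the deposited values. Taking off that median is itself a scaling, so the 2 readings are not independent. Without it Npas2 stood at -0.087, Cry1 at -0.29 and Nfil3 at -0.63 on deposited signals.

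**Figure D4:**
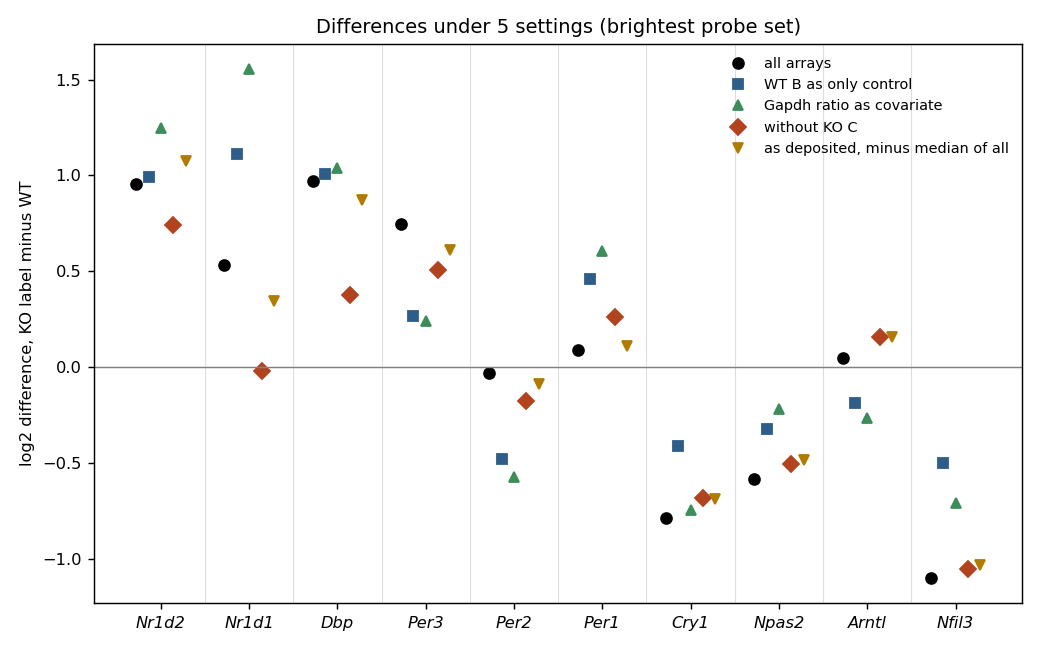
Log2 difference, arrays labelled knockout minus wild type, of the brightest probe set of each clock gene with all arrays, against wild type B alone, with the Gapdh ratio added, without the array labelled knockout C, and on deposited signals relative to the median of all probe sets. Nr1d2, Dbp, Per3 and Per1 stay above 0 and Cry1, Npas2, Nfil3 and Per2 below it in all 5, while Nr1d1 and Arntl cross it. Per1 and Per2 turned under other settings.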

How the data were processed

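Per the labels' protocols, Trizol-extracted, column-cleaned RNA of mouse colonic mucosa was labelled by in vitro transcription from the 3' end and hybridised to 6 arrays. The deposited values are 1 linear intensity per probe set and array, computed by the authors with MAS5 per the submitters' processing notes. The MAS5 version and scaling, not given in the sources used here, could set the brightness of an array, and replicates were not pooled.

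From these, log2(signal + 16) was quantile normalized over all 45101 probe sets in limma 3.58.1 (R 4.3.3). Non-control probe sets with a mean at or above the 40th percentile, a signal of about 18.4, were tested (27002; 64 controls left out) by lmFit and trended eBayes (residual degrees of freedom 4, prior 4.57), and p-values were adjusted over all of them by Benjamini-Hochberg, with a threshold of 0.05. limma adjusted p-values are meant throughout. Symbols came from the platform annotation, which gave 1 symbol for 34945 probe sets, several for 932 and none for 9160. A gene stands for its brightest probe set, and sums of markers are on the linear scale of these values. Arrays give no count depth; precision is limited by how many there are. All 10 members, Mapk14, further clock genes and the 3 genes most like Dbp and Arntl were to be named; some listed genes are not reported here.

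Members and lists were chosen with earlier results of these data known. The steps were tested on simulated data. Alternatives were other scalings, pseudocounts, filters, ways to join probe sets, variance models, array weights, a replicate block, left-out arrays, the Gapdh ratio as a covariate and wild type B as sole control. Deviations from the group means correlated at -0.07, -0.16 and 0.43 between arrays of the same letter, A, B and C. Between arrays of different letters they ran from -0.46 to 0.54. These values cannot decide whether the letters pair the arrays, because deviations within so small a group cancel out and are not independent. With the replicate block the SE fell from 0.61 to 0.23 for Nr1d1 and from 0.27 to 0.16 for Nr1d2. Among the members it rose only for Per1, from 0.26 to 0.29, and Npas2, from 0.21 to 0.23.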

Additional observations from a re-analysis of the deposited data

How the results depend on the processing

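With 3 arrays a group, no call was made for any member in the fit as reported, and none was gained under scaling, pseudocount, filter, probe set or variance alternatives, with the replicate block, or when arrays were left out. Calls appeared only with array weights. limma's default weights stopped before converging and gave wild type A a weight of 36.0 against 0.199 to 1.42 elsewhere, with 5354 probe sets called, 8 of them among the 19 of the clock genes, 12 of the 19 at an unadjusted p under 0.05, 5 other clock genes called and a gap of 1.59. Its gene-by-gene weights, tried after seeing the data, gave wild type A 4.50 and called 74 probe sets, among them 3 of clock genes (Nr1d2, Cry1 and Nfil3), with 8 of the 19 at an unadjusted p under 0.05. Over all probe sets the share called was 19.8% with the default weights and 0.274% with the gene-by-gene weights. The unadjusted share over all probe sets was then 37.1% and 21.3%. The 5 other clock genes called with the default weights were of 17 tested.

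Of all probe sets 1 was called on deposited signals, 1 with array medians centred, 1 with the replicate block, 2 against wild type B alone, 3 when the array labelled knockout C was dropped as well (a setting added after seeing the data), and 0 to 2 with 1 array left out. Of the 19 clock probe sets, those at an unadjusted p under 0.05 numbered 3 on deposited signals (16% of all probe sets), 1 against wild type B alone (2.78%), 1 without the array labelled knockout C as well (3.01%), 1 with the Gapdh ratio (3.29%) and 2 to 6 with 1 array left out (1.76% to 16.2%). The lowest, 2, was reached without the array labelled knockout C, and without wild type A there were 3. Clock probe sets whose groups did not overlap numbered 2 on deposited signals (24.1% of all probe sets), 4 to 7 with 1 array left out (13.9% to 35.5%), 12 against wild type B alone (46.3%) and 13 without the array labelled knockout C as well (61.9%). The highest of that range, 7, was reached without the array labelled knockout A and again without wild type B. The gap, 1.15 in the fit as reported, was 0.57 in the smallest setting and 0.80 to 1.47 with 1 array left out.

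Directions turned for 4 members. Arntl read -0.31 as the mean of its probe sets, -0.032 and -0.014 with the 2 array weights, -0.19 against wild type B alone, -0.080 without the array labelled knockout C as well, -0.27 with the Gapdh ratio and -0.12 to 0.17 with 1 array left out. Per2 read 0.31 on deposited signals, 0.075 with medians centred and -0.25 to 0.20 with 1 array left out, Per1 -0.10 to 0.27 and Nr1d1 -0.018 to 1.18. The share of higher among probe sets at an unadjusted p under 0.05 was 98.5% on deposited signals and 71.5% with medians centred, against 48.3% as reported. Nr1d1 fell under the filter at a pseudocount of 1, and Nr1d1 and Per3 did at the 60th percentile, so no gap was computed there. The cause of these shifts was not tested.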
